A study of Macaca fascicularis and Macaca mulatta with 24 samples.

Results

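The comparison described here set the ischemic cortex of placebo-treated cynomolgus macaques at 6 h after middle cerebral artery occlusion against the same tissue at 1 h. Its members were defined by their labels, as the arrays of the right hemisphere, placebo, at 6 h (3 arrays) and at 1 h (3 arrays). These are 6 of the 24 arrays of the series, and earlier results of these data were known when they were chosen. In all animals the right middle cerebral artery was occluded, and an intravenous infusion, here placebo, was given 5 min later. Biopsies were taken from right ischemic or left non-ischemic cortex and flash frozen. Beside the main comparison stand placebo left cortex (3 arrays at 6 h and 3 at 1 h), which comes from operated animals and is no sham control, and right cortex of animals given 2.6 mg/kg of TatNR2B9c (3 arrays at 6 h and 3 at 1 h). TatNR2B9c is a cell-permeable peptide that uncouples the NMDA receptor subunit NR2B from the scaffold PSD-95. The labels give 3 animals per group and do not say whether samples with the same number at 6 h and 1 h, or on the right and left, came from the same animal. They give neither the length of the occlusion nor the distance of a biopsy from the infarct core.

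Occlusion of the middle cerebral artery cuts off blood to much of the lateral cortex. Neurons lose their ion gradients, glutamate accumulates and calcium enters through NMDA receptors, after which immediate early genes, chaperones, inflammatory mediators and cell death genes are known to respond over the next hours. PSD-95, encoded by DLG4, holds the NMDA receptor next to neuronal nitric oxide synthase, and is the scaffold that TatNR2B9c acts on. In a biopsy, RNA of neurons, glia, vessels and retained blood is measured together, and fewer cells of a type cannot be told apart from less RNA per cell.

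Each array carried the biopsy's RNA in Cy5 and a universal reference RNA in Cy3, so every gene had a log2 ratio of sample over reference and a log2 level in each channel alone. Time could not be told apart from the scanning campaign: the 1 h arrays were scanned on a single day on 2 slides and extracted with an earlier software version, and the 6 h arrays were scanned on another day on 2 other slides with a later version. Cy5 was well above background for 83.9% to 87.2% of probes at 6 h, against 73.3% to 76.7% at 1 h. In Cy3, which held the same reference RNA throughout, it was 84.4% to 88.2% of probes at 6 h, against 22.2% to 51.7% at 1 h. Across genes the log2 ratios had an SD of 1.62 to 1.66 at 6 h, against 0.65 to 1.08 at 1 h. Each of these differences had a two-sided exact permutation p of 0.1, the smallest that 3 against 3 arrays allow. The array labelled 1 h number 3 was the one with 22.2% of probes in Cy3 and an SD of 0.65, and a pair of 1 h arrays correlated at as little as 0.65 in the ratio, whereas in Cy5 alone no pair of 1 h arrays correlated below 0.96. Neuronal markers were present in all 6 biopsies, with NEFL and SNAP25 well above background in Cy5 throughout, and RBFOX3 was not measured.

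In the Cy5/Cy3 ratio, 3361 of 15764 genes were higher at 6 h and 3056 were lower (limma, Benjamini-Hochberg adjusted p under 0.05), which is 21.3% and 19.4% of the genes tested. In Cy5 alone 2028 genes were higher and 1878 lower (12.9% and 11.9%). Cy3 alone, where no biopsy RNA was measured, also differed between the times, with 2231 genes higher and 1425 lower (14.2% and 9.04%). Of the genes called in the ratio, 20.5% were called in the same direction in Cy5 alone, 350 were called in opposite directions by the ratio and Cy5, and 1475 were called in opposite directions by the ratio and Cy3. The gene statements that follow therefore lead with the genes that passed in the ratio and in Cy5 alone in the same direction, with no overlap between the 6 h and 1 h arrays in either. There were 862 such genes higher at 6 h and 420 lower, 5.47% and 2.66% of all genes. Non-overlap by itself held for 59.6% of genes in the ratio and 60.2% in Cy5. The direction of the ratio calls depended on the scaling: 52.4% of called genes were higher with loess, 46.2% when arrays were also scaled to equal spread, 69.3% among genes with both channels above background on all 6 arrays, and 33.1% with median centring, which put the median of all genes at -0.80. Without the array labelled 1 h number 3, 532 genes rose and 149 fell by the joint rule, and without 6 h number 2 it was 535 and 163. The number that fell was 249 without 6 h number 1 and 277 without 6 h number 3.

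Several of the genes highest by this rule belong to neurons. NEFL, the light neurofilament chain of axons, had log2 ratios of 2.97, 4.11 and 3.95 at 6 h, against 0.76, 0.94 and 0.24 at 1 h. Its Cy5 level averaged 13.09 ± 0.52 at 6 h and 9.84 ± 0.20 at 1 h (log2 intensity, SD, n = 3 each). The groups lay far apart in both readings, with a ratio difference of 3.03 ± 0.36 (SE, adjusted p = 1.32e-05) and a Cy5 difference of 3.25 ± 0.39 (adjusted p = 2.14e-05). Its 2 further probes rose by 2.67 and 3.45 in the ratio and by 1.61 and 2.03 in Cy5.

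ICAM5, a dendritic adhesion molecule of the telencephalon, had log2 ratios of 2.97, 4.21 and 3.76 at 6 h, against -0.51, -0.16 and -1.01 at 1 h. The ratio difference was 4.20 ± 0.55, an 18.4-fold change, and the Cy5 difference was 2.75 ± 0.38, a 6.75-fold change. NRGN, the postsynaptic calmodulin-binding protein neurogranin, had log2 ratios of 2.53, 3.12 and 3.04 at 6 h, against 0.76, 0.97 and 0.16 at 1 h. It rose by 2.27 ± 0.23 in the ratio and 2.38 ± 0.30 in Cy5 (adjusted p = 3.72e-06 and 3.63e-05), and its Cy3 level also rose, by 0.86. SYT17, a synaptotagmin-family protein, ranked first among the genes with a symbol when each was taken at the smaller of both differences, at 4.15 ± 0.53 in the ratio and 3.30 ± 0.57 in Cy5. In the reference channel SYT17 and FSIP2 were well above background on 0 of 3 arrays at 1 h, and EBI3, PEG3 and DLG4 on 1 of 3, so their 1 h ratios rest on a reference signal near background. Of the 89 genes given with values here, 21 were well above background in the reference on none of the 1 h arrays, and 13 of these passed by the joint rule, among them BRUNOL4, STMN3, NOS1AP, CACNA1A, SCN1A, KCNA1, SYN1 and SYP.

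SYT17, NEFL and ICAM5 were among the 12 highest, and NRGN was not. The other genes among the 12 highest rose by 2.47 to 3.99 in the ratio and by 2.30 to 3.1 in Cy5. PNMA3 is a neuronal paraneoplastic antigen, CABP1 a neuronal calcium-binding protein, AP1S1 a clathrin adaptor subunit, and MAP3K10 a mixed-lineage kinase upstream of JNK. RND1 is a small GTPase, RANGAP1 the activator of the Ran GTPase in nuclear transport, PEG3 an imprinted zinc-finger protein, EBI3 a subunit of interleukin-27 and interleukin-35, and FSIP2 a sheath protein of sperm. The further probe of PNMA3 differed by 0.57 in the ratio and 0.08 in Cy5, well under the 3.07 and 2.61 of the probe named here. That further probe was well above background in Cy5 on 3 arrays at 6 h and 1 at 1 h.

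**Figure D1:**
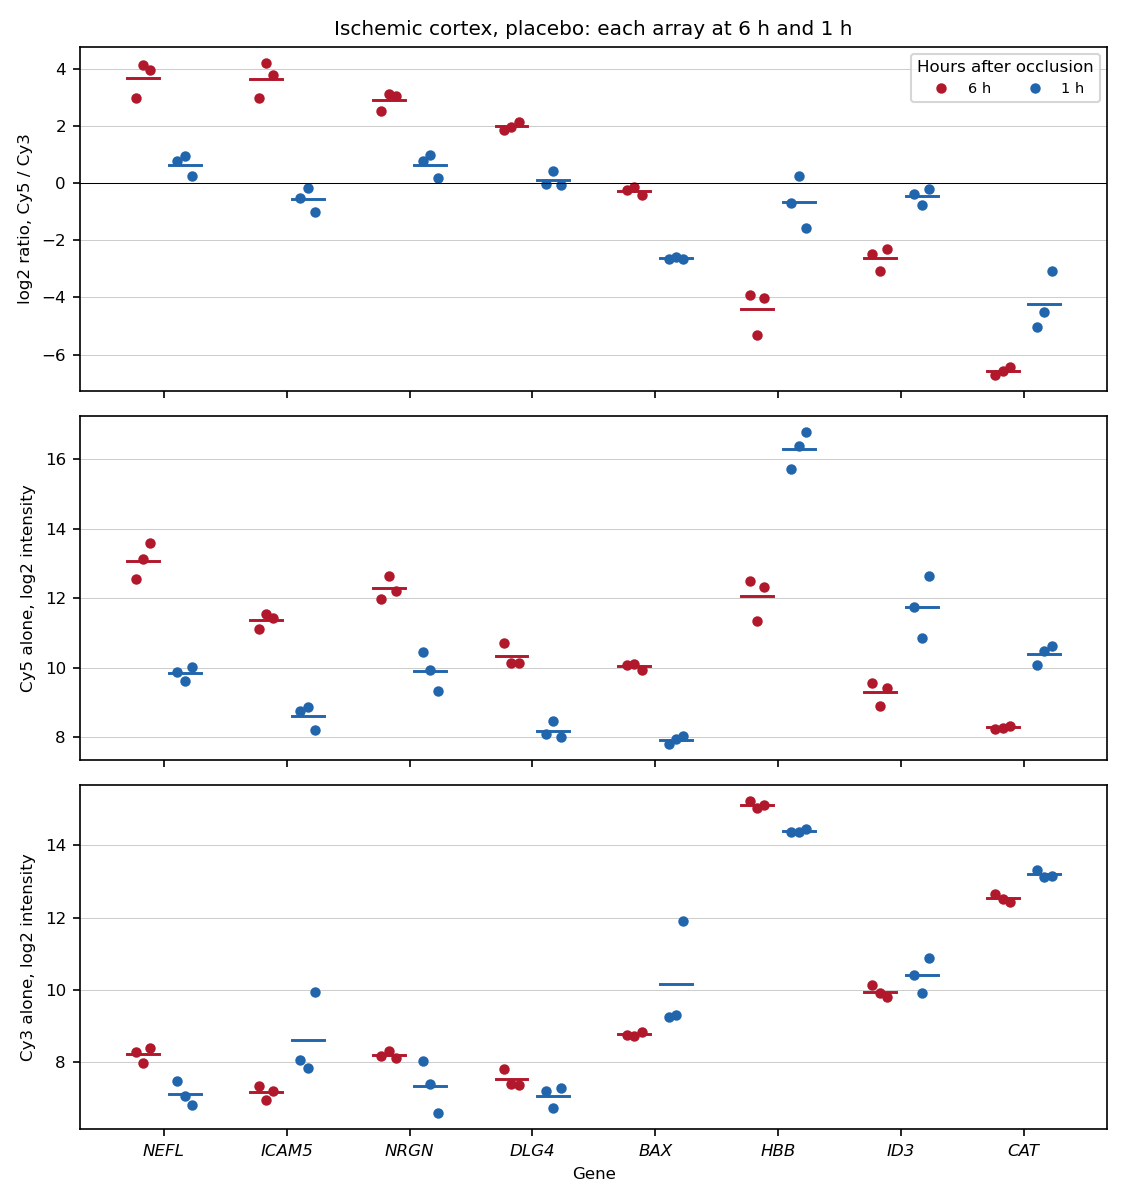
Each of the 3 arrays at 6 h (red) and 3 arrays at 1 h (blue) for 8 genes in placebo ischemic cortex, as the log2 ratio of Cy5 over Cy3 (top) and the normalised log2 intensity of Cy5 (middle) and Cy3 (bottom), with bars at the mean. NEFL, ICAM5, NRGN, DLG4 and BAX lie higher at 6 h and HBB, ID3 and CAT lower in the upper panels, and the Cy3 panel shows that the reference channel moved as well, by -1.44 for ICAM5 and 1.1 for NEFL.

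Genes of red blood cells were among the genes that fell most. HBB, the beta chain of hemoglobin, had log2 ratios of -3.93, -5.30 and -4.02 at 6 h, against -0.71, 0.25 and -1.57 at 1 h. Its Cy5 level was 12.06 ± 0.63 at 6 h and 16.29 ± 0.54 at 1 h, a difference of -4.23 ± 0.44 (18.8-fold lower, adjusted p = 6.99e-06), while Cy3 moved by 0.72. HBQ1, the theta globin chain, fell by 2.17 in the ratio and by 1.80 in Cy5, although 1 of its 2 further probes rose by 0.75 and 0.89. ALAS2, the erythroid enzyme that starts heme synthesis, fell by 2.11 in the ratio and by 1.22 in Cy5. In the ratio 7 of 9 measured red cell genes fell and none rose, with a list median of -0.98, against 0.04 over all genes. In Cy5 2 of the 9 fell, with a median of -0.20. The shares of all genes that fell were 19.4% in the ratio and 11.9% in Cy5. The list's summed Cy5 level was 11.99 to 12.81 at 6 h, against 15.75 to 16.81 at 1 h (log2), a sum made up mostly of HBB, which alone was at 15.71 to 16.79 at 1 h. How far blood retained in the biopsies moved with other genes was not tested.

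ID3, a helix-loop-helix inhibitor of differentiation that is abundant in astrocytes and vessels, had log2 ratios of -2.47, -3.07 and -2.30 at 6 h, against -0.40, -0.76 and -0.22 at 1 h. It fell by 2.16 ± 0.31 in the ratio and by 2.47 ± 0.62 in Cy5 (adjusted p = 4.76e-05 and 0.007). CAT, the enzyme catalase that breaks down hydrogen peroxide, had Cy5 levels of 8.24, 8.28 and 8.34 at 6 h, against 10.07, 10.48 and 10.64 at 1 h. It fell by 2.11 ± 0.52 in Cy5 and by 2.37 ± 0.88 in the ratio (adjusted p = 0.00641 and 0.0389). The remaining genes among the 12 lowest fell by 1.51 to 2.37 in the ratio and by 1.45 to 1.93 in Cy5. These were the cystine transporter subunit SLC7A9, the actin-severing protein SCIN, the G-protein gamma subunit GNG12, the growth factor binding protein IGFBP5, the ferric reductase CYBRD1, the small GTPase ARHE (now RND3), the nucleotide hydrolase NUDT12 and the biotin-recycling enzyme BTD. When the arrays were scaled to equal spread the ratio turned positive for CAT (3.38), NUDT12 (1.19), CYBRD1 (0.84), BTD (0.65), SCIN (0.53), SLC7A9 (0.19) and ARHE (0.05), while Cy5 alone does not use that step.

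The probes of the genes that rose and of those that fell differed in base composition. The stretches printed here are examples only, and those of NRGN and DLG4 hold a larger share of G and C than their whole probes. Each is the first 30 bases of a 60-base array probe on rheMac2, 5′ to 3′, with G and C in capitals.
ICAM5 (chr19:10109477-10109536, listed in ascending order, 73.3% G and C in the whole probe): tGCCattCaGCtGaCCtCGGCGtGaGCCGG
NRGN (chr14:122898284-122898343, ascending, 53.3%): CGCGGaGtCGCtGaGtCCGtGCCCttttaG
DLG4 (chr16:6917708-6917767, descending, 53.3%): aGGGtCtGGGGtCaCCCCtGCCCtCatCGC
HBB (chr14:68176263-68176322, ascending, 31.7%): atattatGaaGGGCCttGaGGatCtGGatt
ID3 (chr1:26160669-26160728, descending, 26.7%): ttttttaCaGGaaGGtGaCtttCtGtaaCa
CAT (chr14:37355045-37355104, descending, 35%): GCaCatttaataCaCCaGtGttGtCaGaaa
The median probe held 55% G and C among the 862 genes that rose and 35% among the 420 that fell, against 43.3% over all genes. In Cy5 alone the median difference between 6 h and 1 h was -0.62 for the 2873 genes whose probes held over 30% and up to 35% G and C, and 0.81 for the 637 genes with over 60%. Across genes this correlation was 0.58 in Cy5, 0.30 in Cy3 and 0.05 in the ratio. The same Cy5 trend appeared in left cortex under placebo (0.36) and in right cortex under TatNR2B9c (0.50).

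When the trend with probe composition was removed from each array, a step added after the data had been seen, 553 genes rose and 227 fell by the same rule, 3.51% and 1.44% of all genes. Of the 862 and 420 genes named before, 393 and 140 were kept. NEFL, ICAM5, NRGN, DLG4, BAX, HBB, ID3 and CAT were among those kept, with Cy5 differences of 2.55, 1.75, 1.82, 1.57, 1.93, -3.58, -1.93 and -1.52. IGFBP5, CYBRD1 and ARHE were the 3 of the 24 highest and lowest genes that no longer passed.

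**Figure D2:**
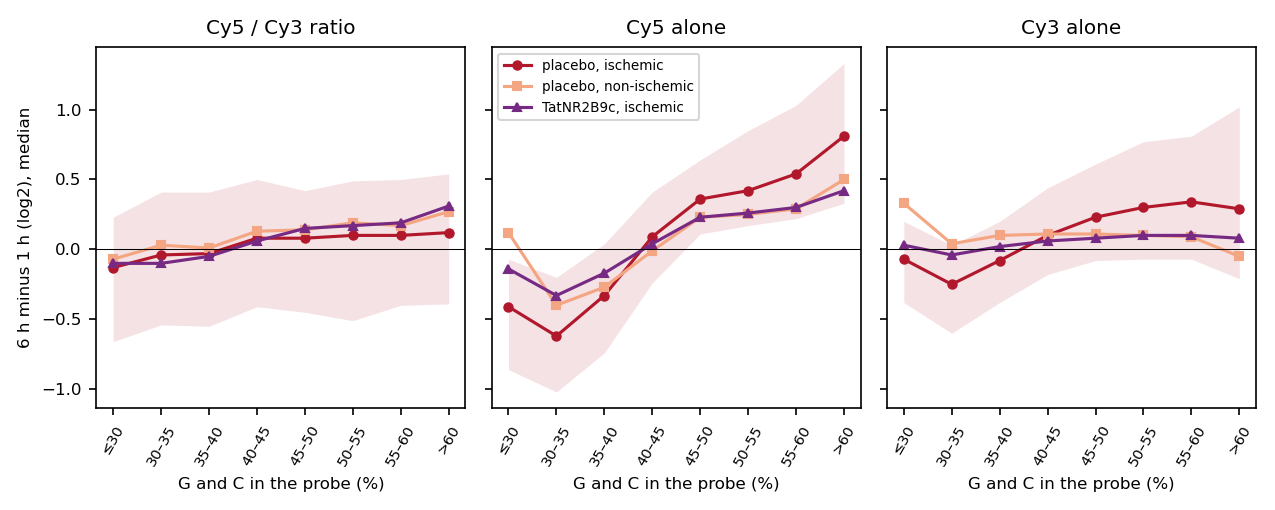
Median difference of 6 h minus 1 h (log2) over genes grouped by the share of G and C in their probe, for the ratio and for each channel alone, with the range between the quartiles shaded for placebo ischemic cortex. In Cy5 alone the placebo ischemic curve runs between -0.62 and 0.81, and above 30% G and C the placebo non-ischemic and TatNR2B9c medians rise as well, to 0.50 and 0.42 in the last group.

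Genes that mark neurons rose as a group in the ratio and in part in Cy5. Of 31 measured neuron markers, 28 rose and none fell in the ratio, with a median difference of 2.25, against 0.04 over all genes. In Cy5 14 rose and 1 fell, with a median of 0.74. The shares of all genes were 21.3% and 19.4% in the ratio and 12.9% and 11.9% in Cy5. SNAP25, also a neuron marker, was lower in Cy5, with values given below. The summed Cy5 level of the list was 18.46 to 18.76 at 6 h, against 18.11 to 18.28 at 1 h (log2). By the joint rule 11 rose, 11 rose with the trend in probe composition removed, and the share over all genes was 5.47%. Across arrays the median ratio of the list was 2.88, 3.08 and 3.22 at 6 h, against 0.91, 1.32 and 0.16 at 1 h, so the groups did not overlap. Beside NEFL, ICAM5 and NRGN, the RNA-binding protein BRUNOL4 (now CELF4) rose by 2.28 and 2.59, and the microtubule regulator STMN3 by 2.15 and 2.07, in the ratio and in Cy5.

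Of 33 measured presynaptic vesicle genes 30 rose in the ratio (median 1.82), beside 21.3% of all genes. But in Cy5 alone 5 rose and 3 fell (median 0.23), beside 12.9% and 11.9%. In Cy3 16 fell, beside 9.04%. SYT5 (a vesicle calcium sensor), SYN1 (synapsin, which tethers vesicles) and SYP (synaptophysin) passed in both readings, by 2.37 and 1.69, 2.01 and 1.64, and 1.92 and 1.15. SNAP25, a core protein of vesicle fusion, had Cy5 levels of 14.43, 13.89 and 14.24 at 6 h, against 15.80, 15.51 and 15.85 at 1 h. It was lower at 6 h on every array in Cy5 (-1.53 ± 0.28, adjusted p = 0.000684), higher in the ratio (1.73 ± 0.57, adjusted p = 0.0207), and lower in the reference channel (-2.25). The vesicle calcium sensor SYT1 likewise rose by 1.82 in the ratio and differed by -0.23 in Cy5 (adjusted p = 0.671). With arrays scaled to equal spread or median centred, the ratio differences were -1.47 and -1.92 for SNAP25 and -0.79 and -0.86 for SYT1.

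Of 49 voltage-gated channels 13 rose by the joint rule, against 5.47% of all genes. In the ratio 38 were higher, beside 21.3% of all genes. In Cy5 14 were higher and 4 lower, beside 12.9% and 11.9%. The list's median was 1.74 in the ratio and 0.30 in Cy5. CACNA1A, the pore of the P/Q-type calcium channel, rose by 2.34 and 1.84, the sodium channel SCN1A by 2.73 and 1.63, and the potassium channel KCNA1 by 2.61 and 1.27.

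Genes around the NMDA receptor, the site at which the series' peptide acts, rose in part. Of 22 measured genes of NMDA receptors, PSD-95 and neuronal nitric oxide synthase, 14 rose and 1 fell in the ratio (median 0.92). The shares of all genes were 21.3% and 19.4%. In Cy5 7 rose and 2 fell (median 0.32), beside 12.9% and 11.9%. By the joint rule 5 rose, beside 5.47%. DLG4, which encodes PSD-95, had log2 ratios of 1.85, 1.97 and 2.13 at 6 h, against -0.02, 0.42 and -0.07 at 1 h. Its Cy5 level was 10.33 ± 0.33 at 6 h and 8.20 ± 0.25 at 1 h, and it rose by 1.87 ± 0.24 in the ratio and 2.13 ± 0.41 in Cy5 (adjusted p = 2.17e-05 and 0.00111). CAMK2B and CAMK2A, subunits of the postsynaptic calcium-calmodulin kinase, rose by 2.53 and 3.62 in the ratio and by 2.07 and 1.1 in Cy5, with the reference level of CAMK2A at -2.35. NOS1AP, the adaptor of neuronal nitric oxide synthase, rose by 2.61 and 1.37, and GRIN1, the obligatory NMDA receptor subunit, by 1.90 and 1.33. GRIN2B, which encodes NR2B, rose by 1.95 in the ratio (adjusted p = 0.0063) and differed by 1.33 in Cy5 (adjusted p = 0.0967), and was well above background in Cy5 on 1 of 3 arrays at 1 h. NOS1, neuronal nitric oxide synthase, differed by 0.03 in the ratio and rose by 0.87 in Cy5. With the trend in probe composition removed GRIN1 no longer passed in Cy5, at 0.59 (adjusted p = 0.0866), and under median centring the ratio differences of GRIN1, CAMK2B and CAMK2A were -1.35, -0.77 and -0.16.

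Among AMPA, kainate and metabotropic glutamate receptors, 14 of 19 rose in the ratio (median 1.87) and 5 rose in Cy5 (median 0.18). The shares of all genes that rose were 21.3% and 12.9%. The AMPA receptor subunit GRIA3 rose by 3.92 and 1.57, although its 3 further probes differed by at most 0.09 in Cy5. The further probe at 0.08 was well above background in Cy5 on 3 arrays at 6 h and 1 at 1 h. GRIA2, the subunit that keeps AMPA receptors impermeable to calcium, rose by 2.93 in the ratio and differed by 0.18 in Cy5 (adjusted p = 0.654). GABA receptor and interneuron genes had 19 of 25 members higher in the ratio (median 1.62), beside 21.3% of all genes. But 2 were higher and 2 lower in Cy5 (median -0.28), beside 12.9% and 11.9%. The receptor subunit GABBR1 passed in both, by 2.60 and 0.69. With the trend in probe composition removed GABBR1 was at 0.22 in Cy5 (adjusted p = 0.634). GAD1, the enzyme that makes GABA, rose by 2.12 in the ratio and differed by 0.15 in Cy5 (adjusted p = 0.756), and its further probe was at 0.23 in the ratio.

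**Figure D3:**
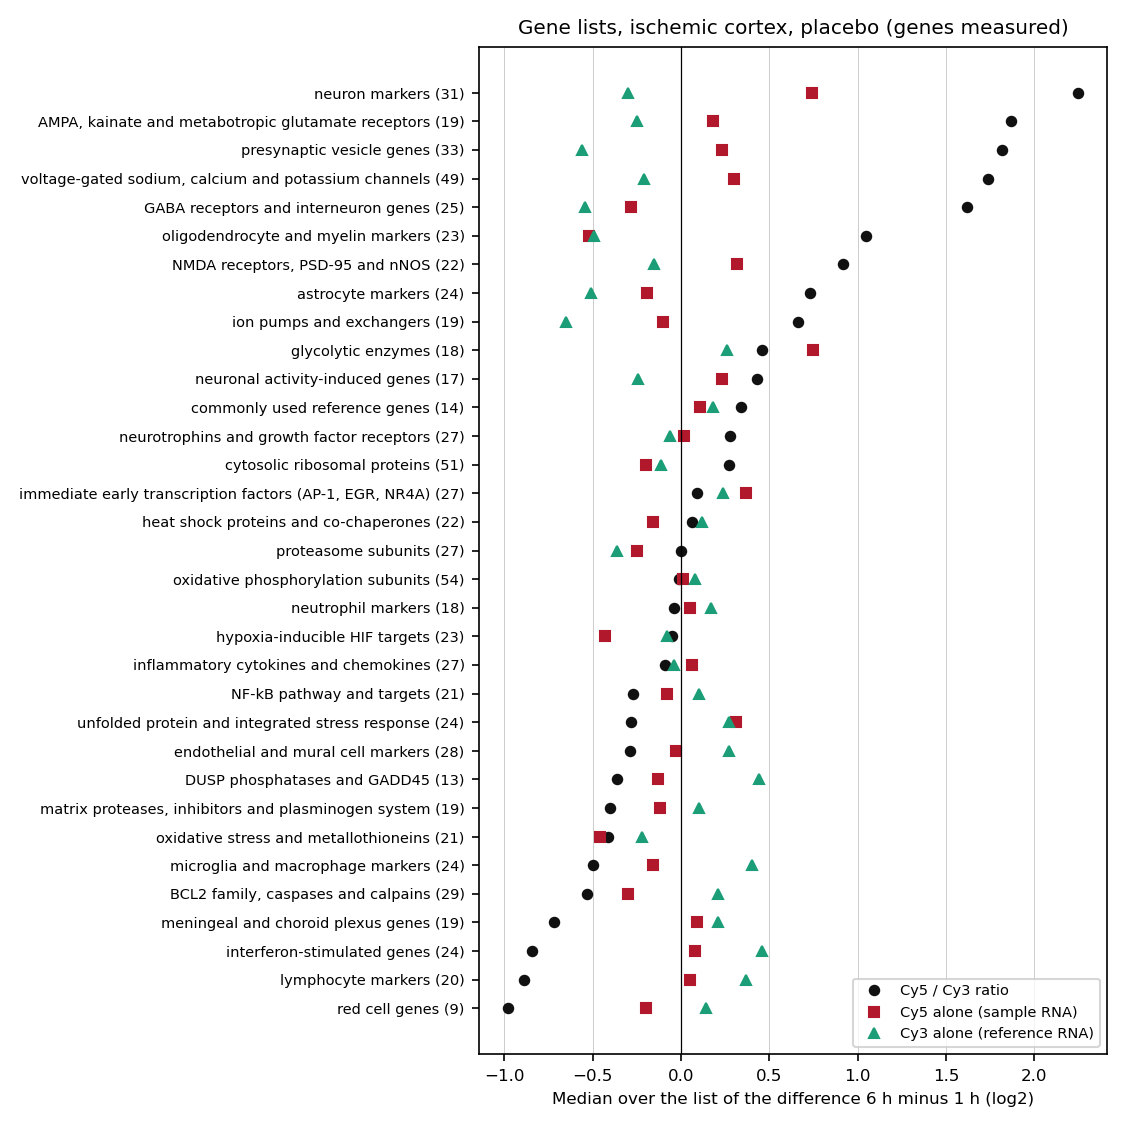
Median difference of 6 h minus 1 h (log2) over the measured genes of 33 lists, read from the ratio (circles), Cy5 alone (squares) and Cy3 alone (triangles). Neuron markers are highest in the ratio, at 2.25, with 0.74 in Cy5, while lists of oligodendrocytes and GABA receptors lie above 0 in the ratio (1.05 and 1.62) and below 0 in Cy5 (-0.52 and -0.28).

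Oligodendrocyte and myelin markers had 11 of 23 genes higher in the ratio (median 1.05), beside 21.3% of all genes. In Cy5 5 were lower and 1 higher (median -0.52), beside 11.9% and 12.9%. MBP, myelin basic protein, rose by 1.73 in the ratio and differed by 0.24 in Cy5, while its further probe was at -0.23 and -0.05. The summed Cy5 level of this list was 15.51 to 16.45 at 6 h, against 16.78 to 18.34 at 1 h. Among 24 astrocyte markers 8 rose and 4 fell in the ratio, beside 21.3% and 19.4% of all genes. In Cy5 3 of them rose and 5 fell, beside 12.9% and 11.9%. The astrocyte list's summed Cy5 level was 17.4 to 17.96 at 6 h, against 17.96 to 18.39 at 1 h. The water channel AQP4 fell by 2.38 in Cy5 with a ratio difference of -0.33 (adjusted p = 0.616), and the astrocyte filament GFAP differed by 0.80 and 0.17 (adjusted p = 0.0768 and 0.857).

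Of 24 microglia and macrophage markers 9 fell and 1 rose in the ratio, beside 19.4% and 21.3% of all genes. In Cy5 4 of them fell and 2 rose, beside 11.9% and 12.9%. AIF1, a calcium-binding protein of microglia, fell by 0.75 in the ratio and by 1.49 in Cy5, although its further probe differed by -0.07 and 0.68. That further probe was well above background in Cy5 on 3 arrays at 6 h and 0 at 1 h. CD68, a lysosomal protein of phagocytes, fell by 2.19 in the ratio alone, and the complement component C1QB moved in opposite directions, by -0.93 in the ratio and 1.06 in Cy5, both past the test. Endothelial and mural markers gave 6 lower and 1 higher of 28 in the ratio, beside 19.4% of all genes lower. In Cy5 5 were lower and 3 higher, beside 11.9% and 12.9%. The adhesion molecule PECAM1 fell by 1.92 in the ratio and differed by -0.09 in Cy5, and the tight junction protein CLDN5 differed by 0.01 and 0.61. DCN, the matrix proteoglycan decorin of meninges and vessels, fell by 1.69 and by 1.43. With the trend in probe composition removed, AIF1 and DCN were at -0.89 and -0.83 in Cy5 and no longer passed (adjusted p = 0.118 and 0.169). With arrays scaled to equal spread the ratio differences turned to 0.98 for DCN, 0.38 for CD68, 0.22 for C1QB and 0.05 for AIF1.

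Of 18 neutrophil markers none rose and 3 fell in the ratio, beside 19.4% of all genes lower. In Cy5 1 rose and 1 fell, beside 12.9% and 11.9%. S100A8, a calcium-binding protein of neutrophils, differed by -1.29 and -1.23 (adjusted p = 0.228 and 0.403). Of 20 lymphocyte markers 12 fell in the ratio (median -0.89), beside 19.4% of all genes. In Cy5 1 rose and none fell (median 0.05), beside 12.9% and 11.9%, and 6 rose in Cy3, beside 14.2%. CD3E, a chain of the T cell receptor complex, fell by 0.68 in the ratio and differed by 0.18 in Cy5.

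Of 27 measured immediate early transcription factors 3 rose and 4 fell in the ratio, beside 21.3% and 19.4% of all genes. The list's median was 0.09, against 0.04 over all genes. FOS, the AP-1 subunit induced by activity and injury, had log2 ratios of -2.59, -3.13 and 1.13 at 6 h, against -1.5, -1.77 and -0.47 at 1 h. A single 6 h array, number 3, was above all 1 h arrays while the other 6 h arrays were below all of them, and the difference was -0.28 ± 1.27 (adjusted p = 0.876). Without that array it was -1.61 (adjusted p = 0.342). The same array was the highest of the 6 for EGR1, whose ratios were 1.07, 0.13 and 2.55 at 6 h, against 0.48, 0.45 and 0.04 at 1 h. It was also the highest for the cytokine gene IL6, with 0.42, -0.22 and 3.93 at 6 h, against 0.31, 0.18 and 0.04 at 1 h, and for the tight junction gene CLDN5. In left cortex at 6 h, FOS and IL6 were highest on array number 2, at 2.29 and 2.20, and not on number 3, at -1.89 and 0.22.

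JUND and IER5 were the members of this list that passed in both readings. JUND, an AP-1 subunit, rose by 1.08 in the ratio and 2.33 in Cy5, and IER5 by 0.65 and 1.35, with reference differences of 1.57 and 1.02. The ratio of IER5 turned to -0.84 with the software's processed signals and to -0.81 in the authors' deposited values, and that of JUND to -1.59 under median centring. JUN differed by 0.48 and 0.41 (adjusted p = 0.309 and 0.52). Of 17 neuronal activity-induced genes 8 rose in the ratio and none in Cy5, beside 21.3% and 12.9% of all genes. ARC, a synaptic plasticity gene, rose by 1.80 in the ratio with a Cy5 difference of -0.02, and the neurotrophin BDNF differed by 0.40 and -1.0. CREM, which encodes the repressor ICER of cAMP signalling among other forms, fell by 0.53 and by 0.90, with further probes at -0.21 and -0.14 in the ratio and at -0.36 and -0.34 in Cy5.

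Of 22 heat shock genes and co-chaperones 4 rose and 1 fell in the ratio, beside 21.3% and 19.4% of all genes. In Cy5 3 rose and 3 fell, beside 12.9% and 11.9%. The co-chaperones STIP1, HSPA4 and FKBP4 rose by 0.80, 0.63 and 0.52 in the ratio and by 1.07, 1.33 and 1.05 in Cy5. HSPA4 alone of these passed with the trend in probe composition removed. The inducible HSP70 gene HSPA1A differed by 0.46 and 2.05 (adjusted p = 0.643 and 0.078), with Cy5 levels of 11.99, 12.13 and 12.85 at 6 h, against 10.42, 10.16 and 10.25 at 1 h. These did not overlap.

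Of 24 genes of the unfolded protein and integrated stress response, 2 rose and 6 fell in the ratio, beside 21.3% and 19.4% of all genes. In Cy5 7 of them rose and 1 fell, beside 12.9% and 11.9%. By the joint rule 1 rose, against 5.47% of all genes. That was DDIT3, which encodes the pro-death factor CHOP and rose by 0.98 ± 0.28 in the ratio and 0.92 ± 0.32 in Cy5 (adjusted p = 0.00976 and 0.0427), but was at 0.46 in Cy5 (adjusted p = 0.427) with the trend in probe composition removed. Its activator ATF4 differed by 0.65 and 0.53 (adjusted p = 0.0549 and 0.133), and the chaperone HSPA5 by 0.13 and -0.04.

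Of 18 glycolytic enzymes 7 rose and 1 fell in the ratio, beside 21.3% and 19.4% of all genes. In Cy5 9 rose and 1 fell, beside 12.9% and 11.9%. GAPDH, often used as a reference gene, rose by 1.37 in the ratio and 1.27 in Cy5 (adjusted p = 0.001 and 0.000156), but was at 0.54 in Cy5 (adjusted p = 0.172) with the trend in probe composition removed and at -2.78 in the ratio under median centring. ENO2, the neuronal enolase, rose by 2.56 and 1.19, with a further probe at 0.32 and 0.85. TPI1, triose phosphate isomerase, rose by 0.84 and 0.87, and PKM2, the pyruvate kinase, by 0.59 and 1.85. TPI1 was at 0.27 in Cy5 (adjusted p = 0.35) with the trend removed. LDHA, lactate dehydrogenase A, differed by -0.62 and -0.70 (adjusted p = 0.4 and 0.123). Hypoxia-inducible targets gave 2 higher and 6 lower of 23 in the ratio, beside 21.3% and 19.4% of all genes. In Cy5 none of them rose and 3 fell, beside 12.9% and 11.9% of all genes.

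Of 21 oxidative stress genes 4 fell and 1 rose by the joint rule, beside backgrounds of 2.66% and 5.47%. CAT was the largest fall, followed by NQO1, a quinone reductase (-1.26 and -1.36), GCLC, which makes glutathione precursor (-0.61 and -0.97), and SQSTM1, an autophagy receptor (-0.52 and -0.95). MT3, the neuronal metallothionein, rose by 2.97 and 1.55. With the trend in probe composition removed CAT still passed, while NQO1, GCLC, SQSTM1 and MT3 did not (adjusted p = 0.107, 0.199, 0.0541 and 0.107 in Cy5). With arrays scaled to equal spread the ratio differences were 1.33 for NQO1 and -0.32 for MT3.

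Of 29 genes of the BCL2 family, caspases and calpains 11 fell and 2 rose in the ratio, beside 19.4% and 21.3% of all genes. In Cy5 5 of them fell and 5 rose, beside 11.9% and 12.9%. BAX, which permeabilises mitochondria in apoptosis, had log2 ratios of -0.23, -0.15 and -0.42 at 6 h, against -2.65, -2.58 and -2.66 at 1 h. It rose by 2.36 ± 0.36 in the ratio and 2.10 ± 0.32 in Cy5 (adjusted p = 8.69e-05 and 0.000148), while its 3 further probes gave -0.20, 2.29 and 0.38 in the ratio and 1.5, 2.10 and 1.34 in Cy5. The anti-apoptotic BCL2 fell by 0.85 and by 1.35, with a further probe at 0.09 and 0.77. CYCS, cytochrome c, fell by 0.93 and by 1.59, and the calpain CAPN2 by 0.50 and by 0.57. With the trend in probe composition removed BCL2 and CAPN2 were at -1.1 and 0.02 in Cy5 (adjusted p = 0.0508 and 0.964).

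Inflammatory cytokines and chemokines gave 3 higher and 4 lower of 27 genes in the ratio, beside 21.3% and 19.4% of all genes. In Cy5 1 was higher, beside 12.9% of all genes, and none passed by the joint rule. IL1B, an early cytokine of microglia, had ratios of 1.31, 0.33 and -0.60 at 6 h, against -0.16, -0.14 and -0.07 at 1 h, a difference of 0.47 ± 0.56 (adjusted p = 0.526). Among NF-kB genes 4 of 21 fell and none rose in the ratio, close to the 19.4% of all genes that fell. In Cy5 2 rose and 1 fell, beside 12.9% and 11.9%. Interferon-stimulated genes had 10 of 24 lower in the ratio (median -0.84), beside 19.4% of all genes, whereas the list's median in Cy5 was 0.08 and in Cy3 0.46. Matrix proteases and their inhibitors had 6 of 19 lower in the ratio, beside 19.4% of all genes, and none called in Cy5. MMP9, a gelatinase of blood-brain barrier breakdown, was at -2.47 and -0.08.

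In non-ischemic cortex under placebo, 4830 genes were higher and 3677 lower at 6 h in the ratio. Across genes the 6 h minus 1 h differences of right and left cortex correlated at 0.95 in the ratio and 0.81 in Cy5, and both sides share the scanning campaigns. Of the 862 genes that rose in ischemic cortex, 366 also passed on the left in both readings and 860 had the same sign there in both. For the 420 that fell the numbers were 181 and 417. The share of all genes with the same sign on both sides was not counted. For genes picked by large differences, at such correlations, agreement in sign is expected and says little by itself. Over all genes 2.99% rose and 2.34% fell on the left in both readings. NEFL rose on the left by 2.77 in the ratio and 2.56 in Cy5, ICAM5 by 4.84 and 1.87, and DLG4 by 2.38 and 1.92.

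HBB fell on the left by 2.17 in the ratio and by 3.07 in Cy5, against 3.74 and 4.23 lower on the ischemic side, and the difference between sides was -1.57 and -1.16 (adjusted p = 1 for each). The test of time by hemisphere called 0 of 15764 genes in the ratio, Cy5 or Cy3 (limma), with 309, 240 and 1500 genes at an unadjusted p under 0.05. With no difference a share of 0.05 of all genes is expected there. The counts in the ratio and Cy5 were below that share and the count in Cy3 was above it. In simulated data with each gene's pooled spread of ratios, the same test recovered 30% of genes given a log2 difference of 1 and 75% of those given 2. The simulation gave all groups the same spread and no array effect shared across genes. The arrays here were less even, so these shares may not hold for them. Left array 1 at 1 h had an SD of log2 ratios of 0.36, and left array 3 at 1 h had 45.4% of probes well above background in Cy5. Without either of these, left out in turn after the data had been seen, the count in the ratio stayed at 0.

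**Figure D4:**
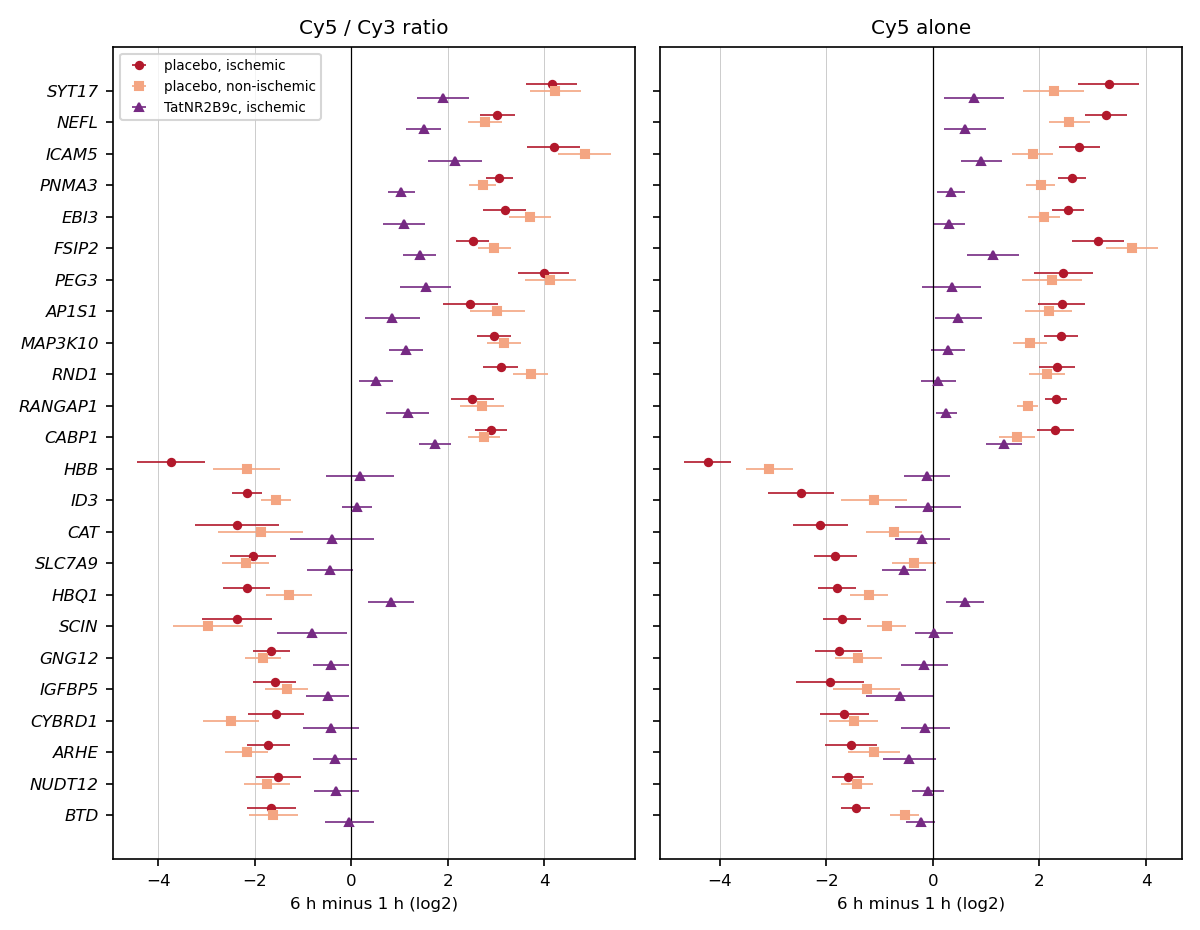
Difference of 6 h minus 1 h (log2, with standard error) for the 12 highest and 12 lowest genes in placebo ischemic cortex (circles), placebo non-ischemic cortex (squares) and TatNR2B9c ischemic cortex (triangles), in the ratio (left) and Cy5 alone (right). The triangles lie nearer 0 than the circles for all 24 genes in both panels, as for HBB at 0.18 and -0.11. The 24 genes were picked as the most extreme in placebo ischemic cortex, so smaller values in other arrays are expected from that choice.

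In ischemic cortex of animals given TatNR2B9c, the 6 h against 1 h comparison called 17 genes higher and 2 lower in the ratio and 0 in Cy5 (limma), with 3056 and 2055 at an unadjusted p under 0.05. Those arrays shared 1 software version, and number 3 of each time lay on a common slide and was scanned on the day of all 1 h arrays. The 6 h arrays number 1 and 2 were scanned on another day on another slide, so for them time and scan day cannot be told apart. Their median Cy3 signals were 311.2 and 292, against 112 for 6 h number 3 and 45.6 to 98.7 for the 1 h arrays. In the ratio 848 of the 862 genes and 395 of the 420 had the same sign there, with medians of 0.63 and -0.42. The share of all genes with the same sign in the ratio was not counted. Of the 862 genes, 76.2% had the same sign there in Cy5, against 51% of all genes, and of the 420 genes 82.9%, against 49% of all genes. All genes are no matched set here, since the Cy5 difference there followed probe composition and the 862 and 420 genes differ from the rest in it. The 862 and 420 genes had median Cy5 differences there of 0.27 and -0.26, beside 1.22 and -1.01 under placebo. These genes were picked for their placebo differences, so smaller values in other arrays are expected from that choice and show no weaker change by themselves. NEFL differed there by 1.5 and 0.60 (adjusted p = 0.0706 and 0.525), ICAM5 by 2.15 and 0.91, and HBB by 0.18 and -0.11. CABP1, the calcium-binding protein among the 12 highest, was the one of these 24 genes to pass there in the ratio, at 1.73 (adjusted p = 0.0499).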

How the data were processed

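RNA of 24 cortical biopsies was measured on 2-colour Agilent arrays, with sample RNA in Cy5 and a universal reference in Cy3 and no dye swap, per the labels. Feature Extraction by Agilent read the images. Per the file headers its version was 9.5.3.1 for placebo arrays at 1 h, 10.5.1.1 for placebo arrays at 6 h, and 10.7.3.1 for the animals given TatNR2B9c. The last is the version that the submitters' processing notes give for all arrays. Probe positions in the files refer to rheMac2. The deposited intensities are spot means and local background medians, not normalised, and processed signals corrected by that software, as the file headers say. Log10 ratios in the deposited files are of processed Cy5 over Cy3, and the authors' series matrix holds the same values within 0.005, with column medians of 0 to 0.162, so scale, centring and direction are settled. Deposited flags give spots above background, not uniform or saturated.

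Of 41851 spots 1417 were controls and the rest read 20217 probes. Background was corrected by normexp (offset 50) and ratios by loess. Control and non-uniform spots were left out, and spots of a probe were averaged. Each channel alone was normexp-corrected, put on log2 and quantile-normalised. A probe was kept (17226 were) where 1 or more of the 8 groups had it well above background in Cy5 on all of its arrays, and a gene was read by its brightest probe, giving 15764 genes, 12919 with a symbol. Names are those of the files: 6722 probes from the newer annotation, 9550 from the oldest only and 3945 unnamed, with 1007 of 5920 differing where both exist.

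limma 3.58.1 in R 4.3.3 (lmFit, eBayes, two-sided) was fitted on all 24 arrays with 8 group means, 3 arrays each, and tested on simulated data. The number of arrays limits the precision. The threshold was 0.05 on the p-value after Benjamini-Hochberg adjustment over all genes. The 24 leading genes are the 12 highest and 12 lowest with a symbol, ranked by the smaller of the differences in the ratio and in Cy5. From each of 33 lists (821 of 972 members measured, 12 by an older symbol) up to 5 such genes and the first 3 genes were eligible for naming. Genes past the time by hemisphere test were to be named too, and there were none. Probe sequence and its G and C share come from the files. Alternatives changed the channel, background correction, normalization, probe filter, arrays in the fit, array weights, replicate block and slide block. Removal of a loess curve on probe G and C was added after the data had been seen. Shares of probes were compared by exact permutation. The members and lists were chosen with earlier results of these data known. Some genes that the rule would name are not reported here.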

Additional observations from a re-analysis of the deposited data

Results flagged for a closer look

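In ischemic cortex the difference between 6 h and 1 h differed between TatNR2B9c and placebo by an interaction test (limma, Benjamini-Hochberg adjusted p under 0.05), given here as the TatNR2B9c difference minus the placebo difference in log2. The count was 396 genes above and 131 below in the ratio, and 47 above and 202 below in Cy5 alone, so the readings leaned in opposite directions. In both readings with the same sign, 3 genes were above and 17 below. The placebo times were scanned in different campaigns and the TatNR2B9c arrays with another software version, so treatment and campaign cannot be told apart.

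For genes picked by their placebo difference, that same difference enters the interaction. Values are listed only for genes named above that passed the interaction test in that reading. A gene left out did not pass, whatever its sign. In the ratio, the interaction was 3.92 for HBB, 2.98 for HBQ1, 2.26 for ID3 and 1.89 for ALAS2. It was -2.60 for RND1, -2.03 for PNMA3, -1.90 for BAX and -1.20 for NRGN. In Cy5 alone it was 4.12 for HBB and 2.40 for HBQ1. Below 0 and past the test in Cy5 were NEFL at -2.65, BAX at -2.63, BRUNOL4 at -2.59, JUND at -2.35, PNMA3 at -2.27, EBI3 at -2.23, RND1 at -2.23, MAP3K10 at -2.11 and RANGAP1 at -2.06. The others below 0 and past the test in Cy5 were NRGN at -1.96, GRIA3 at -1.70, CACNA1A at -1.56, CAMK2A at -1.48 and GAPDH at -1.26.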

How the results depend on the processing

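The time by hemisphere count stayed at 0 in the ratio under each alternative run, and the cause of the other shifts was not tested. In the ratio, 3361 genes were higher and 3056 lower; the counts were 441 and 513 with arrays scaled to equal spread, 745 and 330 with both channels above background on all 6 arrays, 1097 and 977 with the software's processed signals, and 1088 and 962 in the authors' series matrix. Cy5 alone gave 2028 and 1878, Cy3 alone 2231 and 1425, and median centring 7563 lower. In Cy5 alone, 688 were higher and 910 lower with both channels above background, 1344 and 2485 without background subtraction, 1150 and 951 with probe G and C removed, 3807 and 3794 with the 6 arrays alone, and 4354 and 4323 with array weights. In Cy3 alone the total of 3656 became 1525, 12082 without subtraction and 8669 with array weights. By the joint rule, 862 and 420 became 195 and 33 with equal spread, 267 and 91 with both channels above background, 306 and 170 from the authors' values, 291 and 178 with processed signals, 468 and 1518 with median centring, 553 and 227 with probe G and C removed, 1347 and 755 with the 6 arrays alone, 1661 and 1003 with array weights, and 567 and 498 without subtraction. Under TatNR2B9c, 19 genes in the ratio became 1979 with array weights, 11 without the probe filter, 4 without background subtraction, 3 from the authors' values, 2 with processed signals, 1 with equal spread, 1 with probe G and C removed, and 0 with median centring, both channels above background or the slide block. With the replicate number as a block in a fit of the 6 arrays, 2227 genes were higher in the ratio, and 3505 were higher and 3621 lower in Cy5. Whether the numbers pair the arrays is not known from the labels. Deviations of same-numbered arrays from their group means correlated at 0.01, -0.02 and -0.08 in the ratio and at 0.05, 0.08 and 0.04 in Cy5. In the ratio no 6 h array correlated best with its own number. With 3 arrays per time that differ in quality, these values cannot decide the question. Leaving out 1 array at a time gave 2101 to 3315 higher and 1942 to 3050 lower in the ratio, 1215 to 1711 and 964 to 1435 in Cy5, 1953 to 3793 in Cy3, and 532 to 703 and 149 to 331 by the joint rule. Some genes turned sign relative to the ratio and passed the test in the ratio or in the alternative, with these log2 values. In Cy3 alone they were SYT17 -0.27, ICAM5 -1.44, PNMA3 -0.04, EBI3 -0.33, PEG3 -0.04, AP1S1 -0.34, MAP3K10 -0.47, RND1 -1.04, RANGAP1 -0.67, HBB 0.72, HBQ1 0.73, ENO2 -0.91, CAMK2B -0.13, CAMK2A -2.35, NOS1AP -0.24, GRIN1 -0.23, GRIN2B -0.40, GRIA3 -0.27, GRIA2 -1.65, GABBR1 -1.42, GAD1 -0.36, KCNA1 -0.07, SYN1 -0.11, SYP -0.03, SNAP25 -2.25, SYT1 -0.44, ARC -0.90, MMP9 0.70, MT3 -1.35, BAX -1.39, CAPN2 0.06, ALAS2 0.10, CD68 0.83, C1QB 1.30, MBP 0.00, PECAM1 0.74, CD3E 0.83. In Cy5 alone they were SNAP25 -1.53, SYT1 -0.23, ARC -0.02, C1QB 1.06, CD3E 0.18. In Cy5 with probe G and C removed they were SNAP25 -0.94, ARC -0.58, CAPN2 0.02, C1QB 0.32. In Cy5 without background subtraction they were GRIA2 -0.30, GAD1 -0.26, SNAP25 -1.96, SYT1 -0.72, ARC -0.45, BDNF -1.30, C1QB 0.94, CD3E 0.31. With equal spread they were CAT 3.38, SLC7A9 0.19, SCIN 0.53, CYBRD1 0.84, ARHE 0.05, NUDT12 1.19, BTD 0.65, GRIN1 -0.12, GRIA2 -0.10, SNAP25 -1.47, SYT1 -0.79, NQO1 1.33, MT3 -0.32, AIF1 0.05, CD68 0.38, C1QB 0.22, DCN 0.98. With median centring they were AP1S1 -0.64, ENO2 -0.64, CAMK2B -0.77, CAMK2A -0.16, GRIN1 -1.35, GRIA2 -0.18, GABBR1 -0.87, GAD1 -0.09, SNAP25 -1.92, SYT1 -0.86, JUND -1.59, JUN -1.77, ARC -0.54, STIP1 -1.83, FKBP4 -1.16, DDIT3 -1.10, ATF4 -3.43, GAPDH -2.78, TPI1 -2.97, PKM2 -0.88, MT3 -0.81, CLDN5 -1.65. With processed signals IER5 was -0.84, and it was -0.81 from the authors' values. Cy3 was above background for as little as 22.2% of probes on a 1 h array, which limits the ratio there.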

Other observations

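Of 54 oxidative phosphorylation subunits 7 rose and 2 fell in the ratio and 14 rose and 11 fell in Cy5, with medians of -0.01 and 0.01. Of 51 cytosolic ribosomal proteins 6 rose and 2 fell in the ratio, and 6 rose and 14 fell in Cy5, with medians of 0.27 and -0.20. Of 27 proteasome subunits 4 rose and none fell in the ratio, and 6 rose and 7 fell in Cy5, with medians of 0 and -0.25. Of 14 commonly used reference genes 2 rose and 2 fell in the ratio, and 2 rose and 3 fell in Cy5, with medians of 0.34 and 0.11. Over all genes the medians were 0.04 and 0.02, with 21.3% higher and 19.4% lower in the ratio and 12.9% and 11.9% in Cy5.

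Of 19 ion pumps and exchangers, which restore neuronal gradients, 11 rose in the ratio and none in Cy5, where 1 fell. Of 27 neurotrophins and growth factor receptors 8 rose and 6 fell in the ratio, and none passed in both readings. Of 13 DUSP phosphatases and GADD45 genes 1 rose and 2 fell in the ratio. Of 19 meningeal and choroid plexus genes 6 fell in the ratio and 2 in Cy5. The shares of all genes were 21.3% higher and 19.4% lower in the ratio, and 12.9% and 11.9% in Cy5.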
